A study of Mus musculus with 36 samples.

Results

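DNase I hypersensitive sites (DHSs) that lost accessibility in the livers of phenobarbital (PB)-treated mice of both C57BL/6J and B6C3F1 are described here. A DHS was counted as closed in a strain if its mean normalized count in vehicle-treated mice was at least 30 and its mean in PB-treated mice was at most 0.75 of that mean, and 644 of the 98170 consensus DHSs met this on an autosome in both strains. Of the 96287 autosomal DHSs, 9484 were below the level minimum in a strain, so the 644 closed DHSs came from 86803 eligible ones (0.742%). The 5 with the lowest combined ratio (geometric mean of both strains) among those in which no PB-treated mouse reached a vehicle-treated mouse lay near Tmem114, in introns of Tbc1d4 and Plcl1, near Slc24a5, and in an intron of Slc9a9. The members were chosen by the PB/vehicle ratio of DNase-seq. The size of that ratio and the levels in vehicle-treated mice are therefore given as descriptions, with no support drawn from them. Width, position, sequence and RNA-seq were not part of the rule, but the RNA-seq came from the same mice.

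DNase-seq and RNA-seq were performed on livers of 18 male mice, 4 vehicle-treated and 5 PB-treated of each strain. PB-treated mice had free access to drinking water with 0.05% (wt/vol) PB for 91 d and vehicle-treated mice to drinking water without it. C57BL/6J mice, labelled C57BL/6, were obtained from Taconic at 9 to 11 weeks of age, while B6C3F1 mice, hybrids of C57BL/6 females and C3H/He males, were obtained from Charles River at 4 to 5 weeks of age, so strain cannot be told apart from age, supplier and study. The animal numbers of DNase-seq recur in RNA-seq, and a mouse is given here as the final digit of its number (1, 2, 3 and 5 for vehicle, 1 to 5 for PB). Nuclei and RNA came from frozen liver tissue without sorting of cells, so fewer cells of a type and less open chromatin, or less RNA, per cell cannot be told apart.

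DNase I cuts where DNA is free of nucleosomes, which marks promoters, enhancers and other regulatory elements, and the number of reads in a DHS measures how open it is across the cells of the sample. PB is a barbiturate that activates the constitutive androstane receptor (CAR) in hepatocytes, and CAR with its partner RXR binds near genes of drug metabolism and turns them on. A DHS that closes may lose a bound factor or the activity of the enhancer it marks.

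Windows of 200 bp at the center of the 6 DHSs with the lowest combined ratio, among those in which no PB-treated mouse reached a vehicle-treated mouse in either strain, are shown because the per-mouse values below start from these DHSs. They are from the RefSeq GRCm38 (mm10) genome, plus strand, 5′ to 3′, at chr16:8189187-8189386 (Tmem114), chr14:101544632-101544831 (Tbc1d4), chr1:55509705-55509904 (Gm6644), chr2:124903459-124903658 (Slc24a5), chr9:94705067-94705266 (Slc9a9) and chr2:24479300-24479499 (Pax8). The Tbc1d4 and Gm6644 DHSs are 183 and 184 bp wide, so their windows reach past both edges. Capitals mark matches on either strand to the consensus letters of 15 factor families listed with the motif shares.
Tmem114 DHS: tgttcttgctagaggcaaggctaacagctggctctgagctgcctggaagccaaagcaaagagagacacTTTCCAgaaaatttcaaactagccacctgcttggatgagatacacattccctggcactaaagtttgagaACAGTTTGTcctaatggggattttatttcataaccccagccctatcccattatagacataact
Tbc1d4 DHS: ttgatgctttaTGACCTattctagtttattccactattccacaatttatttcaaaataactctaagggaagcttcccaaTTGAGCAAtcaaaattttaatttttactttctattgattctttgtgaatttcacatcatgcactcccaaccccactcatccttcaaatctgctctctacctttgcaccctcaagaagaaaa
Gm6644 DHS: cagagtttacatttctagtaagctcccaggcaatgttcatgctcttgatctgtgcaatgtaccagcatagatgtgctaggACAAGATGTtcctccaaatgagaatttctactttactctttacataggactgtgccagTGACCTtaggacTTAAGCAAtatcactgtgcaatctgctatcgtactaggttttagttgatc
Slc24a5 DHS: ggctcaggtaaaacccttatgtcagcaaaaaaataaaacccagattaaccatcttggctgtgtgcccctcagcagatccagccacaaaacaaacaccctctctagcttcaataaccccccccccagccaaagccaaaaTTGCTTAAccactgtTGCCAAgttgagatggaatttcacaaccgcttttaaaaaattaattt
Slc9a9 DHS: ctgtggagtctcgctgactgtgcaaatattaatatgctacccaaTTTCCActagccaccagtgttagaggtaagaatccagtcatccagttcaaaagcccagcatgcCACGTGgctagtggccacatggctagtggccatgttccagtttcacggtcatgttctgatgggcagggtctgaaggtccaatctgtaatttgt
Pax8 DHS: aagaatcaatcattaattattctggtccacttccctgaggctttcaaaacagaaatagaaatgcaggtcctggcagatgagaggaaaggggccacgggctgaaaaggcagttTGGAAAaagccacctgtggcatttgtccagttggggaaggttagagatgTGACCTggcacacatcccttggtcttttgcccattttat
The capitals in the Tmem114 window are a nuclear factor of activated T cells (NFAT) match and a steroid receptor match, those in Tbc1d4 a nuclear receptor core and a C/EBP match, and those in Gm6644 a steroid receptor, a nuclear receptor and a C/EBP match. Slc24a5 holds a C/EBP match and a nuclear factor I (NF-I) core, Slc9a9 an NFAT match and an E-box, and Pax8 an NFAT match and a nuclear receptor core. None of the 6 held a match to the STAT and BCL6, FOX or AP-1 letters.

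The DHS at chr16:8189184-8189388, 205 bp wide, in intergenic DNA 235850 bp from the transcription start site (TSS) of Tmem114, had the lowest combined ratio. Normalized counts, which are reads in the DHS times a scaling factor for each mouse, were 34.1, 40.6, 62.9 and 112 in vehicle-treated C57BL/6J mice 1, 2, 3 and 5 and 18, 20.3, 23.0, 23.6 and 16.9 in PB-treated mice 1 to 5. In B6C3F1 they were 57, 56.2, 36.9 and 62.2 with vehicle and 5.89, 10.9, 12.7, 12.9 and 7.08 with PB. All PB-treated mice of a strain thus lay below all of its vehicle-treated mice, and the PB/vehicle ratio was 0.325 in C57BL/6J and 0.187 in B6C3F1, the lowest of all eligible DHSs in B6C3F1. The spread in vehicle-treated C57BL/6J mice was wide (62.5 ± 35.5, SD, n = 4) and that in the PB-treated mice narrow (20.3 ± 2.96, n = 5).

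The Slc9a9 DHS at chr9:94705002-94705330 lies in an intron of this gene, which encodes a sodium/proton exchanger of endosomes, 35274 bp downstream of its TSS. It had normalized counts of 142, 187, 133 and 202 with vehicle and 68.8, 74.6, 74.1, 98.2 and 98.5 with PB in C57BL/6J (ratio 0.50), and of 109, 139, 73.8 and 83.8 against 26.5, 28.7, 47.6, 32.8 and 47.8 in B6C3F1 (ratio 0.362). Neither strain showed an overlap of its groups. The Tbc1d4 DHS (chr14:101544640-101544822), in an intron of a gene for a Rab GTPase-activating protein of insulin-stimulated glucose uptake, went from 51.7 ± 11.1 to 26.0 ± 8.01 in C57BL/6J and from 31.6 ± 6.93 to 10.8 ± 2.50 in B6C3F1 (SD, n = 4 and 5), with 50.5% of its window in repeats. The DHS near Gm6644 (chr1:55509713-55509896), in an intron of Plcl1, a phospholipase C-like protein without lipase activity, went from 45.1 ± 11.8 to 20.3 ± 3.17 and from 62.2 ± 18.4 to 24.1 ± 13.5.

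The rest of the 12 DHSs with the lowest combined ratio and no overlap are described by their nearest gene. The Pax8 DHS (chr2:24479233-24479566), 3800 bp upstream of the TSS of a factor of thyroid and kidney development, had ratios of 0.562 and 0.340 in C57BL/6J and B6C3F1. The DHS assigned to Maf, a basic leucine zipper factor, sits 431220 bp from its TSS within an intron of Wwox (chr8:115275500-115275848) and had counts of 149, 161, 148 and 152 against 108, 90.7, 69.5, 88.4 and 83.0 in C57BL/6J, and of 97.1, 142, 144 and 112 against 36.8, 79.3, 49.2, 46.7 and 37.2 in B6C3F1. Vehicle-treated C57BL/6J mice were close to each other in this DHS (152 ± 5.86). The Cdh19 DHS (chr1:110793171-110793600), 184208 bp downstream of a cadherin gene, had a ratio of 0.687 in C57BL/6J and 0.311 in B6C3F1, from vehicle means of 165 ± 16.2 and 67.1 ± 10.4. The remaining members of the 12 were near Slc24a5 (ratios 0.502 and 0.360), Gm30476 (0.593 and 0.338), Gm40962 (0.683 and 0.301) and Tln2 (0.653 and 0.348), the last in an intron of the gene for talin 2, which couples integrins to actin. Htra1 completes the 12 and is described with the promoters.

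**Figure D1:**
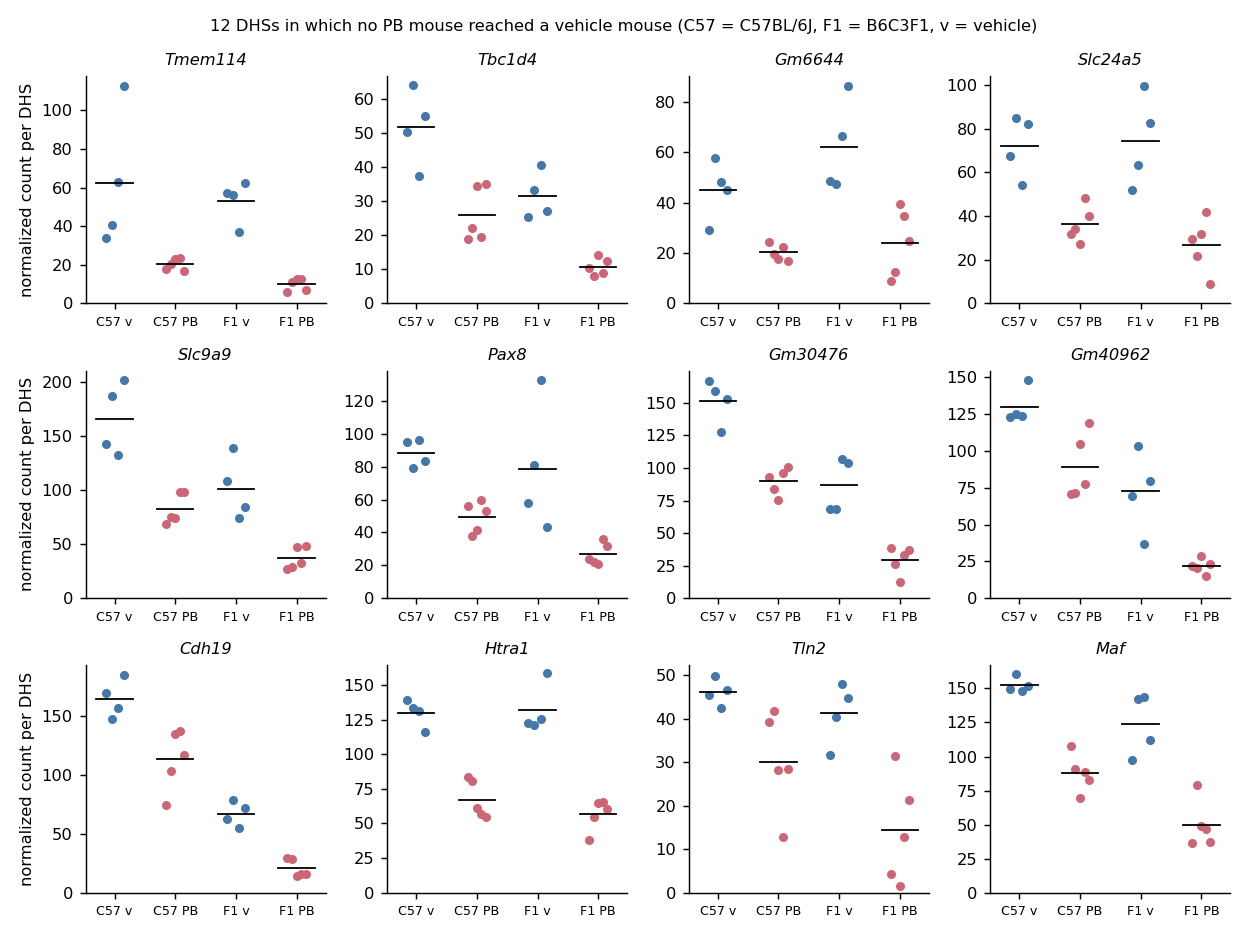
Normalized count (vertical axes, from 0) of each mouse in the 12 DHSs with the lowest combined ratio and no overlap, named by the gene of the nearest TSS, with vehicle-treated mice in blue, PB-treated mice in red and the group mean as a black line, C57 standing for C57BL/6J and F1 for B6C3F1. The vertical gap between the groups is wide in the Htra1 and Maf panels and narrow in the Tln2 panel, where PB-treated B6C3F1 mice span 1.59 to 31.5.

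Over the 644 closed DHSs the median ratio was 0.689 in C57BL/6J and 0.632 in B6C3F1, with lowest values of 0.317 and 0.187. The larger of the ratios was above 0.7 in 357 members, so that many sat close to the limit. Both ratios were at or under 0.6 in 66 and at or under 0.5 in 12, and a ratio at or under 0.5 was reached in 24 members in C57BL/6J and 113 in B6C3F1. The ratio was lower in B6C3F1 than in C57BL/6J in 454 members (70.5%). In B6C3F1 6669 eligible DHSs (7.68%) were closed and in C57BL/6J 1971 (2.27%), so the shared DHSs made up 9.66% of the former and 32.7% of the latter. By the mirrored rule, with a ratio of at least 1.33, 769 DHSs (0.886%) were opened in both strains, while 48 were closed in C57BL/6J and opened in B6C3F1 and 246 were opened in C57BL/6J and closed in B6C3F1. On chromosome X, which the rule left out, 14 DHSs met the same limits.

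**Figure D2:**
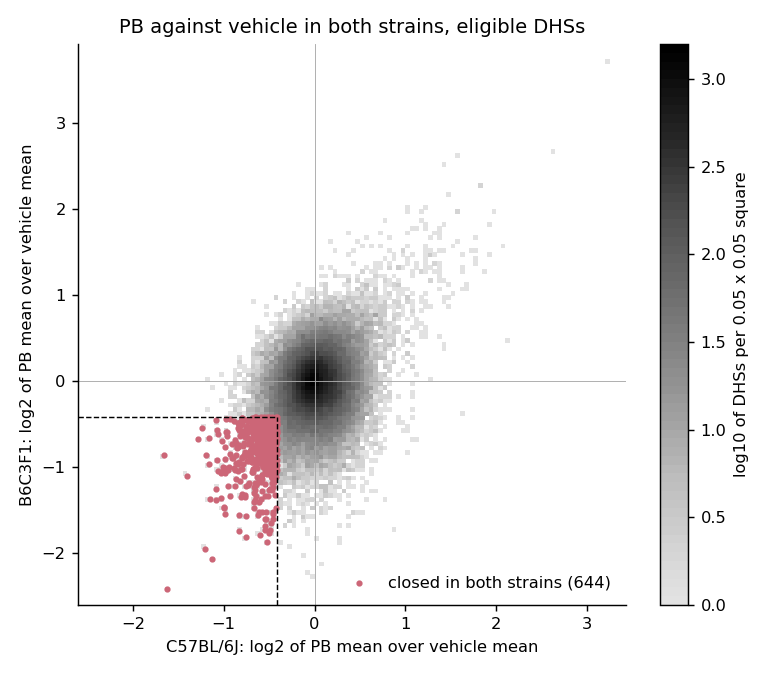
Log2 of the PB mean over the vehicle mean in C57BL/6J (horizontal) and B6C3F1 (vertical) for the 86803 eligible DHSs, shaded by the log10 of their number per square of 0.05 by 0.05, with the 644 closed DHSs in red and the ratio limit of 0.75 as dashed lines. The red points crowd against the limit in both directions and reach the Tmem114 DHS at the lower left.

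At the limit, the members just inside were near A130077B15Rik (ratios 0.7499 and 0.675), Tph2 (0.7499 and 0.631) and Sel1l3 (0.7497 and 0.630), and the DHSs just outside were in or near Actn1 (0.75003 and 0.730), Gm37294 (0.7502 and 0.621) and Ankrd44 (0.7503 and 0.677). The Sel1l3 DHS (chr5:53236819-53237085) had 60.1, 61.2, 78.1 and 57.5 against 49.8, 41.8, 50.5, 48.1 and 50.6 in C57BL/6J and the Actn1 DHS (chr12:80201045-80201290) 73.0, 70.5, 71.8 and 41.6 against 47.6, 44.2, 47.7, 56.0 and 45.4. The groups did not overlap in the former, and in the latter vehicle-treated mouse 5 was below all PB-treated mice.

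Single mice overlapped in most members. In C57BL/6J no PB-treated mouse reached a vehicle-treated mouse in 201 members (31.2%), and the same held for 1.39% of all eligible DHSs. In B6C3F1 this was so in 155 members (24.1%), beside 1.77% of eligible DHSs, and in both strains in 60 (9.32%), beside 0.1%. The rule used the same values, so nothing is read from these shares, but they show that 348 members had overlapping groups in both strains. Each strain gives 20 pairs of a PB-treated and a vehicle-treated mouse, and the PB-treated mouse was lower in a median of 18 of them in either strain. At the lower end this fell to 9 pairs in C57BL/6J and 10 in B6C3F1, and 67 and 127 members had 15 or fewer such pairs.

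By mouse, the median log2 difference of the members to the vehicle mean was -0.51 to -0.66 in PB-treated C57BL/6J mice and -0.60 to -0.90 in PB-treated B6C3F1 mice, and between -0.12 and 0.09 in all vehicle-treated mice. Every PB-treated mouse was therefore lower than every vehicle-treated mouse of its strain by this median, while over the eligible DHSs no mouse was further from 0 than -0.04. The rule chose the members on the means of these same mice, so nothing is read from this difference. In C57BL/6J, vehicle-treated mouse 3 reached into the PB-treated range most often, in 255 members (39.6%), and mouse 5 least often, in 113 (17.5%). Depth differed as well, with 19.4 to 58.1 M reads in DHSs per C57BL/6J mouse and 7.01 to 25.7 M per B6C3F1 mouse, and the median member had 181 reads in vehicle-treated C57BL/6J mouse 3 but 19 in vehicle-treated B6C3F1 mouse 3. The within-group coefficient of variation of the median member was 19.0% with vehicle and 22.5% with PB in C57BL/6J and 26.8% and 31.7% in B6C3F1, against 13.2%, 15.8%, 18.2% and 18.2% for eligible DHSs.

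**Figure D3:**
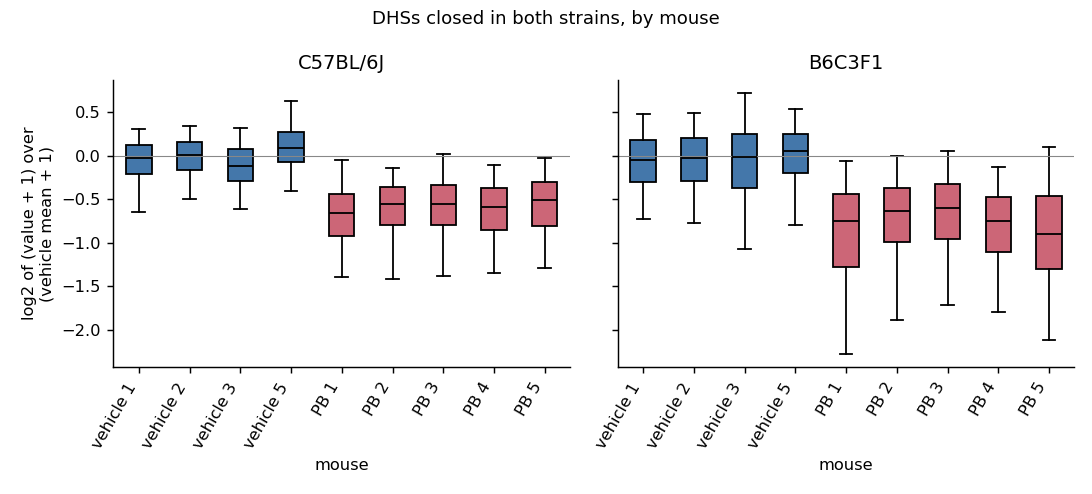
Log2 of the normalized count plus 1 over the vehicle mean plus 1 (vertical axis) in the 644 closed DHSs for each mouse, with boxes for the quartiles, lines for the median and whiskers for the 5th and 95th percentiles, vehicle in blue and PB in red. PB-treated mice center below 0 in both strains, where the rule placed their means, and the boxes are taller in B6C3F1.

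At the median, the closed DHSs were narrower, weaker and further from a TSS than eligible DHSs. Their width had a median of 270.5 bp (quartiles 218.5 and 366, range 118 to 1292) beside 339 bp for the eligible DHSs and 316 bp for the opened ones. The mean normalized count with vehicle had a median of 82.7 in C57BL/6J and 67.8 in B6C3F1, against 131 and 136 over the eligible DHSs, and fell to 54.7 and 40.6 with PB. By starting level, taken as the lower vehicle mean, 1.46% of DHSs between 30 and 50 were closed, 0.940% between 50 and 100, 0.708% between 100 and 200, 0.331% between 200 and 400, and 0.104% from 400 upwards. The share also fell with width, from 1.01% under 200 bp and 1.09% between 200 and 300 bp to 0.283% between 500 and 1000 bp and 0.0956% above that. The opened DHSs fell off with starting level as well, from 1.98% in the lowest class to 0.0552% in the highest. The 60 members without overlap in either strain were wider (median 335 bp) and stronger (145 and 114) than the median member. No test was made of these differences, and width and distance to a TSS were not compared at matched starting level.

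In position, 381 members (59.2%) were intergenic and 204 (31.7%) intronic, against 36.6% and 41.6% of eligible DHSs and 44.9% and 44.3% of opened ones. A promoter, the 1000 bp upstream of a TSS or the TSS itself, was covered by 34 members (5.28%), beside 15.1% of eligible and 4.55% of opened DHSs, and 25 members (3.88%) lay over exons. A TSS lay within 100 kb of 453 members (70.3%), against 89.0% of eligible DHSs. The median distance to the nearest TSS was 46174 bp, against 16010 bp for eligible and 23810 bp for opened DHSs. Members were found on all 19 autosomes, at 0.475% of the eligible DHSs of chromosome 11 to 1.12% of those of chromosomes 12 and 13. Repeats covered at least 50% of the central window in 40 members (6.21%), near the share among eligible DHSs (5.07%).

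**Figure D4:**
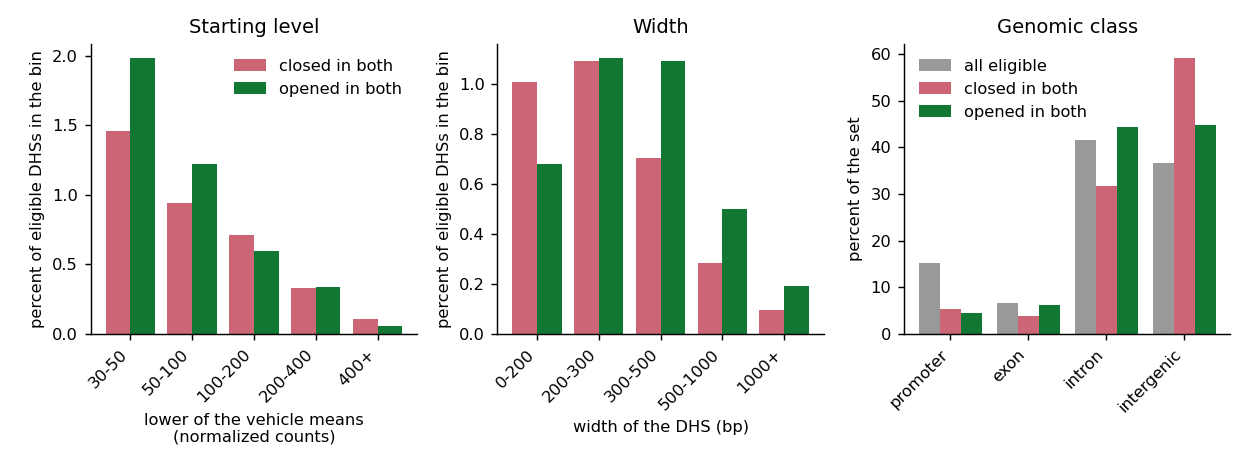
Percent of eligible DHSs in each class of starting level (left, the lower vehicle mean in normalized counts) and width (middle, bp) that were closed (red) or opened (green) in both strains, and percent of the eligible (gray), closed and opened DHSs in each genomic class (right). Red bars fall from left to right over starting level, from 1.46% to 0.104%, and 59.2% of closed DHSs are intergenic.

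Sequence matches were counted on both strands of a centered 200 bp window, whose GC content had a median of 45% in members and 48.5% in eligible DHSs. The window also held flanking DNA where a DHS was under 200 bp wide, in 116 members and 11472 eligible DHSs. The NF-I core TTGGCA was in 186 members (28.9%), against 18.5% of eligible and 21.8% of opened DHSs. The NFAT letters TGGAAA were in 167 (25.9%, against 18.9% and 16.9%), the C/EBP letters TTGCNNAA in 116 (18%, against 14.3% and 16.8%), and the TCF/LEF letters ATCAAAG in 49 (7.61%, against 3.97% and 5.85%). NF-I and C/EBP factors regulate hepatocyte genes, and TCF/LEF factors carry the β-catenin signal. The nuclear receptor core AGGTCA, which CAR with RXR can bind in repeats, was in 149 members (23.1%), near the 21.8% of eligible DHSs and below the 28.1% of opened ones, and the AP-1 letters TGANTCA were in 50 (7.76%), against 7.46% of eligible and 13.4% of opened DHSs.

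Shares of the other letters lay above or below those of eligible DHSs. STAT and BCL6 (TTCNNNGAA) were in 8.39% against 7.35%, FOX (TGTTTAC) in 5.28% against 5.55%, the steroid receptor letters ACANNNTGT in 9.01% against 6.79%, HNF4 (CAAAGTCCA) in 2.48% against 1.57%, HNF1 (GTTAATNAT) in 1.24% against 1.58%, and NR5A (CAAGGTCA, which contains the nuclear receptor core) in 2.02% against 2.60%. ETS (CCGGAAG), E-box (CACGTG) and PAR bZIP (TTATGTAA) letters were in 1.55%, 3.11% and 0.621% of members, against 3.2%, 5.04% and 1.25%. Outside promoters, the NF-I core remained in 30.3% of members against 20.4%, and TCF/LEF in 7.87% against 4.39%. Among the 60 members without overlap, NFAT was in 31.7%, NF-I and C/EBP each in 25% and TCF/LEF in 1.67%. A match is a description of these letters and not of a bound factor, and no test was made.

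Closed DHSs lay near each other more than near opened ones. Another member was within 100 kb of 204 members (31.7%) and within 10 kb of 104 (16.1%), while a member was that near to 5.87% and 0.896% of the eligible DHSs. The opened DHSs lay near each other more often still. Another opened DHS was within 100 kb of 380 of them (49.4%) and within 10 kb of 213 (27.7%). An opened DHS was within 100 kb of 13 members (2.02%) and of 8.84% of eligible DHSs. Within 10 kb this was so for 1 member (0.155% against 1.46%), the DHS nearest to Adra2b at chr2:127375181-127375463, named here after its values were seen. When members within 100 kb were joined, the 644 formed 527 loci, of which 440 held 1 member, 67 held 2, 13 held 3, 6 held 4 and 1 held 7. Neighboring DHSs share the mice and can share the same change, so they are not independent.

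The locus of 7 members covers 209180 bp of chromosome 5 (chr5:107087295-107296474), with 2 DHSs downstream of Cdc7, a kinase gene of replication, and 5 in or near Tgfbr3, which encodes betaglycan, a coreceptor for TGF-β. In the strongest of them (chr5:107272227-107273140, 914 bp, intron), the counts in C57BL/6J were 1015 to 1189 with vehicle and 718 to 809 with PB, a ratio of 0.684. In B6C3F1 they were 638 to 1034 and 522 to 711 (ratio 0.740), with overlap. The member over the Tgfbr3 promoter (chr5:107289283-107289803) had ratios of 0.749 and 0.747, close to the limit, and overlapping groups in both strains. The intronic DHS at chr5:107184184-107184622 had no overlap, from 274 ± 28.6 to 196 ± 19.4 in C57BL/6J and from 152 ± 13.6 to 74.8 ± 16.9 in B6C3F1.

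Other loci were more compact. In Tmem45b, 4 members followed each other within 4686 bp (chr9:31429099-31433784), with ratios of 0.653 to 0.673 in C57BL/6J and 0.347 to 0.663 in B6C3F1. Upstream of Chrm2, a muscarinic acetylcholine receptor gene, 4 members within 52534 bp had ratios of 0.498 to 0.599 and 0.484 to 0.525, and the strongest (chr6:36280678-36281101) counts of 249, 241, 176 and 196 against 84.7, 135, 81.0, 98.2 and 137 in C57BL/6J and 233, 291, 185 and 243 against 144, 164, 128, 103 and 35.4 in B6C3F1. The groups of this DHS did not overlap in either strain. Near Gm34637 4 members within 38290 bp had ratios of 0.477 to 0.717 and 0.299 to 0.674, and around Ocstamp, a gene of osteoclast fusion, and Gm14437 4 members within 47840 bp had ratios of 0.471 to 0.738 and 0.384 to 0.749.

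The locus in Scara5, which encodes a ferritin scavenger receptor, stood apart by its spread. Its 4 members lie within 20290 bp (chr14:65716138-65736427), the last of them nearest to the TSS of Pbk, a kinase gene. At chr14:65719352-65719602 the counts were 55.2, 69.8, 64.6 and 251 against 91.0, 29.2, 94.8, 62.9 and 33.7 in C57BL/6J, and 320, 198, 40.6 and 123 against 19.2, 39.7, 47.6, 28.8 and 246 in B6C3F1. A vehicle-treated mouse in C57BL/6J and a PB-treated mouse in B6C3F1 were thus far above the others of their groups, and the ratios of 0.566 and 0.447 rest on few mice.

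Fitted with limma over all 98170 DHSs and called at a log2 fold change (FC) of at least 0.58 in size and a Benjamini-Hochberg FDR of at most 0.01, 24 members (3.73%) were lower with PB in C57BL/6J, where 0.0377% of all DHSs were, and 9 (1.40%) in B6C3F1, where 0.0214% were. The rule used this contrast, so the counts only say how many members also pass a cutoff on the error. The median log2 FC of the members was -0.54 in C57BL/6J and -0.67 in B6C3F1, and 499 and 367 had an unadjusted p under 0.05, against 7.76% and 9.16% of all DHSs. The call held in either strain for 32 members and in both for 1, the Htra1 promoter DHS. In C57BL/6J the count fell to 7 without vehicle-treated mouse 1, 6 without mouse 2, 9 without mouse 5 and 15 without PB-treated mouse 2. All DHSs called lower fell in the same fits from 37 to 13, 13, 16 and 27. In B6C3F1 the count of members was 3, 2 and 2 without vehicle-treated mice 1, 2 and 5, 5, 3 and 3 without PB-treated mice 1, 3 and 4, 16 without vehicle-treated mouse 3 and 18 without PB-treated mouse 5. All DHSs called lower in these B6C3F1 fits, in the same order, moved from 21 to 4, 5, 12, 7, 4, 6, 29 and 103.

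The smallest FDR by limma in C57BL/6J among the members was that of a DHS 17432 bp downstream of Tmem50a (chr4:134897216-134897752), with counts of 651, 684, 759 and 748 with vehicle and 205, 289, 245, 416 and 301 with PB (log2 FC -1.32, FDR 0.000176). In B6C3F1 the groups of this DHS overlapped, at 657, 693, 413 and 707 against 452, 313, 395, 458 and 315 (log2 FC -0.66, FDR 0.1004). It was among the strongest members in starting level. The Sfmbt2 DHS (chr2:10675797-10676069), 303497 bp from the TSS of a Polycomb-type gene, had the lowest C57BL/6J ratio of all, 0.317, and 0.554 in B6C3F1 (FDR 0.00068 and 0.429). In B6C3F1 the smallest FDR by limma was at the Gm34637 DHS of chr12:12541496-12541973, with 172, 123, 188 and 147 against 56.0, 67.0, 44.4, 52.7 and 39.0 (log2 FC -1.59, FDR 0.00108), and in C57BL/6J its FDR was 0.199.

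Cyp7b1 encodes the oxysterol 7α-hydroxylase of the alternative bile acid pathway and is expressed at a higher level in male than in female mouse liver. The DHS 52732 bp upstream of its TSS (chr3:18295835-18296305) had counts of 689, 903, 623 and 809 against 503, 428, 484, 594 and 565 in C57BL/6J and of 519, 465, 450 and 619 against 283, 265, 284, 256 and 195 in B6C3F1. The groups did not overlap in either strain, and limma gave log2 FCs of -0.55 (FDR 0.0123) and -1.0 (FDR 0.00159). The DHS near 5430427M07Rik (chr12:90923182-90923713) had ratios of 0.603 and 0.601 with no overlap in either strain. Further members called in a strain were near 4930470O06Rik (0.473 and 0.532), 4922502H24Rik (0.498 and 0.502), 4930549C15Rik (0.734 and 0.445) and Fancl, a ubiquitin ligase gene of DNA repair (0.569 and 0.729), where repeats made up 79.0% of the window.

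Over promoters, the Htra1 DHS (chr7:130935624-130936175, 552 bp) was the member called in both strains. Htra1 encodes a secreted serine protease. Counts were 139, 133, 131 and 116 with vehicle and 83.6, 80.6, 60.9, 57 and 54.4 with PB in C57BL/6J, and 122, 121, 125 and 158 against 38.3, 54.7, 65.0, 65.6 and 60.2 in B6C3F1. The ratios were 0.519 and 0.431 and the limma FDRs 0.0036 and 0.0094. Htra1 RNA did not follow at the same size, with 1.70 ± 0.277 CPM (reads scaled to the library total adjusted by TMM, SD, n = 4) against 1.68 ± 0.393 (n = 5) in C57BL/6J and 2.1 ± 1.22 against 1.40 ± 0.215 in B6C3F1 (limma FDR 0.985 and 0.323).

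The promoter DHS of Mycn (chr12:12941778-12942143), a gene of the MYC family of growth regulators, had counts of 129, 142, 155 and 201 against 85.7, 69.2, 50.0, 89.4 and 89.4 in C57BL/6J and 253, 184, 218 and 153 against 95.8, 88.9, 122, 88.4 and 86.8 in B6C3F1, with no overlap. Mycn RNA was low and went from 0.947 ± 0.381 to 0.321 ± 0.0975 CPM in C57BL/6J (log2 FC -1.26, limma FDR 0.0706) and from 0.818 ± 0.387 to 0.219 ± 0.0872 in B6C3F1 (log2 FC -1.44, FDR 0.0130), so neither passed the cutoff. The promoter DHS of Chrm3, a muscarinic receptor gene, had ratios of 0.671 and 0.470, that of Pdzd2 0.575 and 0.495, that of 6720489N17Rik 0.6997 and 0.481, and that of BB218582 0.672 and 0.505. Chrm3, Pdzd2 and 6720489N17Rik did not pass the RNA-seq cutoff in either strain, with limma FDRs of at least 0.283, and BB218582 was not tested.

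The Col6a6 promoter DHS (chr9:105808992-105809768) met the rule with groups that were widely spread. Its counts were 62.8, 459, 98.1 and 987 with vehicle and 638, 57.3, 421, 184 and 92.0 with PB in C57BL/6J, and 776, 916, 653 and 322 against 63.4, 159, 53.9, 57.6 and 583 in B6C3F1. In C57BL/6J the groups overlapped over most of their range, and without vehicle-treated mouse 5 the log2 ratio turned from -0.53 to 0.43. Col6a6, a collagen VI chain gene, had 0.616 ± 0.268 against 0.807 ± 0.147 CPM in C57BL/6J and 1.15 ± 0.0796 against 0.647 ± 0.124 in B6C3F1 (limma FDR 0.556 and 0.0396). A vehicle coefficient of variation above 75% was found in 10 members in C57BL/6J and 9 in B6C3F1.

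Vehicle-treated mice of both strains were also compared. The vehicle means were part of the rule, as its level minimum and as the denominator of the ratio, so these values describe the members and support nothing. By limma over the 8 vehicle-treated mice, 60 members (9.32%) were lower in B6C3F1 than in C57BL/6J, where 4.34% of all DHSs were, and 14 (2.17%) were higher, where 6.14% were. The median log2 difference of the members, B6C3F1 minus C57BL/6J, was -0.27, against -0.01 for eligible DHSs, and 458 of the 644 were below 0. The Cdh19 DHS above is an example, with 147 to 185 in C57BL/6J but 55.4 to 79.0 in B6C3F1. The count of 74 moved to 45, 41 and 49 without vehicle-treated C57BL/6J mice 1, 2 and 5. In the same fits, all DHSs called lower moved from 4257 to 2051, 2048 and 2587, and those called higher from 6024 to 3069, 2932 and 4302. The difference in PB response between strains was called by limma in 0 members, and in 0% of all DHSs, with 20 members (3.11%) at an unadjusted p under 0.05 against 5.39% of all DHSs and a smallest FDR of 0.905. The rule asked for a low ratio in both strains, so nothing is read from these counts.

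RNA-seq was not used by the rule and gives another readout at the genes nearest to the members. It came from the same mice whose DNase-seq chose the members, so it is not independent of that choice. A difference between these livers that is not due to PB could enter both readouts, and its part was not tested. The 644 DHSs were nearest to the TSSs of 532 genes, of which 290 had a row in the RNA table, 9 of them under an older symbol, and 288 were tested. By limma at the same cutoffs, 1 of them was lower and 2 were higher with PB in C57BL/6J, where 0.0289% and 0.845% of all 13838 genes were, and 9 were lower and 5 higher in B6C3F1, where 0.448% and 1.55% were. The called genes were thus few. The median log2 FC was -0.05 in C57BL/6J and -0.10 in B6C3F1, against -0.01 in both for all genes, and 60.1% and 67.0% of the nearest genes were below 0, against 52.2% of all genes in either strain. Below 0 in both strains were 138 of the 288 (47.9%, against 34.0% of all genes), and above 0 in both 60. Both strains are compared over the same genes but with separate mice. No test over the list was made.

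The RNA differences were larger near the members. Of the 72 genes with a member within 10 kb of the TSS, 73.6% were below 0 in C57BL/6J (median log2 FC -0.18) and 77.8% in B6C3F1 (-0.29). Of the 137 genes with the closest member 10 to 100 kb away, these shares were 55.5% and 68.6% (medians -0.03 and -0.10), and of the 79 genes beyond 100 kb 55.7% and 54.4% (medians -0.01 and -0.02). Among 24 genes with a member over the promoter, 18 were below 0 in C57BL/6J and 22 in B6C3F1, with medians of -0.23 and -0.49. Genes nearest to 2 or more members, 45 in all, were below 0 in 75.6% and 82.2%. Of the 9 genes called lower in B6C3F1, 8 had a member within 10 kb, while no gene called lower or higher in C57BL/6J did.

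**Figure D5:**
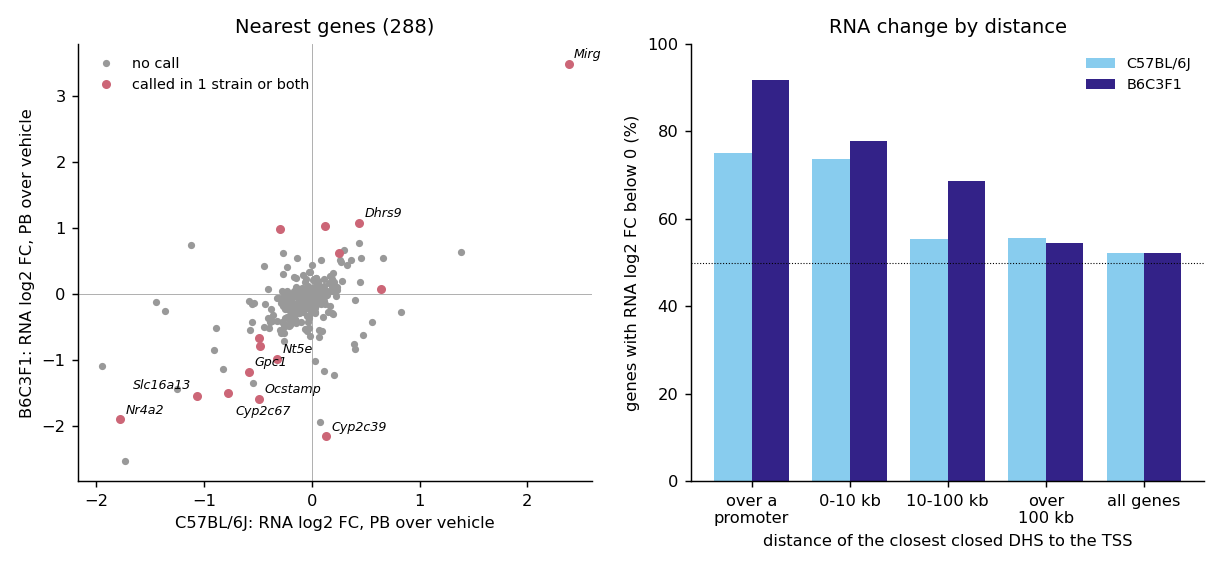
Left, RNA-seq log2 FC of PB over vehicle in C57BL/6J (horizontal) and B6C3F1 (vertical) for the 288 tested genes nearest to closed DHSs, with genes called in a strain in red. Right, percent of these genes with a log2 FC below 0 by distance of the closest closed DHS to the TSS (the promoter class is part of the 0 to 10 kb class), beside all genes, with a dotted line at 50%; the bars fall from 75% and 91.7% over promoters to 55.7% and 54.4% beyond 100 kb.

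Nr4a2, an orphan nuclear receptor of the NR4A family that responds early to hormones and stress, was the gene called lower in both strains. Its CPM was 0.713, 0.455, 0.724 and 0.743 with vehicle and 0.140, 0.251, 0.0796, 0.0780 and 0.0831 with PB in C57BL/6J, and 1.39, 0.705, 0.705 and 0.670 against 0.151, 0.0749, 0.108, 0.276 and 0.180 in B6C3F1. No PB-treated mouse reached a vehicle-treated mouse, and the log2 FCs by limma were -1.78 (FDR 0.00113) and -1.90 (FDR 0.000318), but 1 read is worth 0.0336 to 0.0415 CPM here, so the PB values rest on a few reads. With a pseudocount of 1 the call in C57BL/6J was lost. The member lies 24450 bp upstream of the TSS (chr2:57148331-57148575), with 80.6, 102, 72.6 and 81.9 against 47.6, 61.5, 41.3, 25.5 and 66.1 in C57BL/6J and 98.2, 56.2, 59.0 and 89.2 against 32.4, 36.9, 44.4, 39.7 and 49.6 in B6C3F1. DNase-seq thus separated the groups in both strains as well.

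Slc16a13 encodes a monocarboxylate transporter of the liver. Its RNA was 2.39, 1.97, 2.66 and 2.19 CPM against 1.51, 1.33, 0.995, 0.507 and 1.16 in C57BL/6J (log2 FC -1.07, limma FDR 0.0109, just above the cutoff) and 1.86, 1.75, 2.54 and 2.12 against 0.642, 0.712, 0.432, 0.725 and 0.720 in B6C3F1 (log2 FC -1.54, FDR 0.000137). The groups did not overlap in either strain. The intronic member (chr11:70218180-70218346) had ratios of 0.675 and 0.502, with overlapping groups in both strains. Nt5e, the ecto-5′-nucleotidase CD73 that makes adenosine from AMP, went from 30.8 ± 6.95 to 15.5 ± 2.15 CPM in B6C3F1 (log2 FC -0.98, limma FDR 0.00251). In C57BL/6J it was 16.9 ± 3.52 with vehicle and 13.6 ± 3.30 with PB (log2 FC -0.32, FDR 0.545), and its intronic member (chr9:88330435-88330624) had ratios of 0.635 and 0.416.

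Cytochrome P450 genes of the Cyp2c group, whose members share much of their sequence so that reads may be split between them, were also called lower in B6C3F1. Cyp2c39 RNA was 53.2, 55.9, 78.4 and 60.3 CPM with vehicle and 8.95, 25.2, 6.51, 10.2 and 31.6 with PB in B6C3F1 (log2 FC -2.16, limma FDR 0.00451), and 2.59 ± 0.629 against 2.97 ± 1.09 in C57BL/6J (FDR 0.954), a level far below that of B6C3F1. Its promoter DHS (chr19:39346993-39347433) was more open in vehicle-treated C57BL/6J mice (428 against 202) and closed in both strains, with ratios of 0.651 and 0.550. Cyp2c67 went from 478 ± 124 to 179 ± 89.6 CPM in B6C3F1 (log2 FC -1.50, limma FDR 0.00403), whereas C57BL/6J had 247 ± 18.5 with vehicle and 145 ± 23.2 with PB (log2 FC -0.78, FDR 0.243). The groups of its intronic member (chr19:39647461-39647923; ratios 0.624 and 0.491) did not overlap in either strain.

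The other genes called lower were found in B6C3F1. Gpc1, a glypican proteoglycan of the cell surface with members over its promoter and in an intron, fell from 12.3 ± 4.85 to 5.30 ± 1.43 CPM (log2 FC -1.17, limma FDR 0.00439), Ocstamp, with 3 members, from 1.17 ± 0.443 to 0.328 ± 0.138 (log2 FC -1.58, FDR 0.00248), Irf5, an interferon regulatory factor of macrophages, from 12.9 ± 3.84 to 7.30 ± 1.05 (log2 FC -0.78, FDR 0.00622), and Fam46c, now named Tent5c, a poly(A) polymerase with 2 members, from 9.20 ± 0.558 to 5.79 ± 0.855 (log2 FC -0.67, FDR 0.00302). The same genes had log2 FCs of -0.58, -0.49, -0.48 and -0.49 in C57BL/6J, none past the FDR cutoff (0.0603 at the lowest). The interaction over both strains called 0 genes by limma, with 30 of the 288 (10.4%) at an unadjusted p under 0.05 against 7.90% of all genes, so the calls in B6C3F1 alone were not shown to differ from C57BL/6J. When each mouse was left out in turn, the call in B6C3F1 held for Nr4a2, Slc16a13 and Nt5e in every fit, that of Ocstamp was lost without vehicle-treated mouse 3 or 5, that of Gpc1 without vehicle-treated mouse 2 or PB-treated mouse 1, 3 or 4, and that of Fam46c without vehicle-treated mouse 1. Irf5 lost it without vehicle-treated mouse 1, 2 or 5 or PB-treated mouse 1, 2 or 3, Cyp2c39 without any of the vehicle-treated mice or PB-treated mouse 1, 3 or 4, and Cyp2c67 without vehicle-treated mouse 1, 2 or 5 or PB-treated mouse 1, 3 or 4.

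Several genes that had the nearest TSS to a closed DHS rose. Mirg, a long noncoding RNA that hosts microRNAs in the imprinted Dlk1-Dio3 region, went from 0.0497 ± 0.0600 to 0.692 ± 0.338 CPM in C57BL/6J (log2 FC 2.38, limma FDR 0.000949) and from 0.163 ± 0.171 to 2.52 ± 0.838 in B6C3F1 (log2 FC 3.49, FDR 4.51e-06). The member 39125 bp downstream (chr12:109774022-109774190) closed with ratios of 0.687 and 0.634, so DHS and RNA moved in opposite directions. Adora1, the adenosine A1 receptor gene, rose in C57BL/6J from 13.2 ± 2.31 to 20.5 ± 2.69 CPM (log2 FC 0.65, limma FDR 0.00641), a call lost when any 1 of 7 mice was left out. In B6C3F1, Dlgap1 (log2 FC 0.98, limma FDR 0.00116), Dhrs9 (1.08, FDR 0.00979) and Btnl9 (0.62, FDR 0.00184) rose, from vehicle means of 1.34 to 4.61 CPM, and the call of Dhrs9 was lost in 15 of the 18 fits that left out a mouse. The call of Btnl9 was lost without vehicle-treated mouse 2 or 3. The closest member lay 4411 bp from the TSS of Btnl9 and 16616 bp from that of Adora1. For Dhrs9 and Dlgap1 it was distant, at 85742 and 107070 bp. Dlgap1 encodes a postsynaptic scaffold protein, Dhrs9 a retinol dehydrogenase and Btnl9 a butyrophilin-like protein.

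The members picked for naming by their DNase-seq values, promoters or loci had 39 nearest genes, of which 24 were tested by RNA-seq. Tmem114, Gm6644, Pax8, Chrm2, Tmem45b and Gm34637 were among those not tested. The tested genes that are not among the called genes above did not pass both RNA-seq cutoffs. In B6C3F1, Tln2 went from 31.0 ± 2.99 to 21.2 ± 2.11 CPM (log2 FC -0.55, limma FDR 9.58e-05) and Tbc1d4 from 8.09 ± 0.977 to 5.67 ± 0.528 (log2 FC -0.50, FDR 0.00272), both past the FDR but short of the size cutoff. The C57BL/6J values were -0.29 (FDR 0.0560) for Tln2 and -0.26 (FDR 0.265) for Tbc1d4. Slc9a9 (-0.04 and 0.12), Maf (0.07 and 0.01), Slc24a5 (-0.16 and -0.37) and Tmem50a (-0.12 and -0.14) had FDRs of at least 0.0771. Cdh19 RNA was low, with 0.415 ± 0.204 CPM against 1.22 ± 0.427 in C57BL/6J (log2 FC 1.38, limma FDR 0.0723) and 0.102 ± 0.0823 against 0.220 ± 0.150 in B6C3F1 (log2 FC 0.65, FDR 0.357), so its means were higher with PB, without passing the cutoff, while its DHS was lower. Cyp7b1 RNA was 299 ± 50.7 against 210 ± 72.1 CPM in C57BL/6J and 232 ± 96.1 against 196 ± 51.5 in B6C3F1 (limma FDR 0.585 and 0.839). Scara5 (-0.89 and -0.51) and Tgfbr3 (-0.20 and -0.10) had FDRs of at least 0.144.

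Lists of liver genes were set beside the members to see which programs held genes nearest to closed DHSs. CAR target genes rose by limma in 26 of 33 in C57BL/6J and 22 of 33 in B6C3F1, with Cyp2b10, the standard PB-induced P450, going from 8.73 to 1194 CPM in C57BL/6J. Of the 33, 0 were nearest to a member, where 2.08% of all tested genes were, so that 0 is near the background. Of 31 male-biased genes that depend on growth hormone and STAT5, 0 and 1 (Ugt2b1, higher) were called. Their median log2 FCs were -0.26 in C57BL/6J and -0.01 in B6C3F1, with 11 and 8 at an unadjusted p under 0.05 by limma. Over all genes, 12.4% and 23.4% were under this p, with a median log2 FC of -0.01 in both strains. Cyp7b1 and Serpina1e were nearest to members, the latter with 2 DHSs of ratio 0.522 and 0.499, and 0.536 and 0.539, in a cluster of near-identical genes. Of 18 female-biased genes tested of 25, 5 and 6 were higher, where 0.845% and 1.55% of all genes were. The median log2 FCs of these 18 genes were 0.27 and 0.15. The part of CAR activation in these calls was not tested. Cyp3a16 and Cux2 were among the female-biased genes nearest to members. Of the STAT, BCL6 and NFAT factor genes 0 of 15 were called in either strain (0 and 1 at an unadjusted p under 0.05), and Rbpj was nearest to a member. Foxa3, lower in C57BL/6J (log2 FC -0.62, limma FDR 0.00286), was the call among 29 liver-enriched factor genes, of which Cux2 and Klf9 were nearest to members.

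Metabolic lists showed few calls by limma. None of 20 gluconeogenesis genes was called in either strain (3 and 9 at an unadjusted p under 0.05), nor any of 19 lipogenesis genes (0 and 5), of which Elovl5 was nearest to a member. Over all genes, 12.4% in C57BL/6J and 23.4% in B6C3F1 were under this p, and 0.845% and 1.55% were called higher. Of 24 bile acid and cholesterol genes 0 and 1 (Slco1a4, higher) were called, and of 18 circadian clock genes 0 and 1 (Bhlhe41, higher). Of 19 perivenous hepatocyte genes 2 were higher in C57BL/6J (Cyp1a2 and Rhbg) and 1 in B6C3F1, and of 18 periportal genes 0 and 1 (Cdh1). Perivenous genes nearest to members were Lgr5, an R-spondin receptor of the β-catenin pathway with 2 DHSs (ratios 0.729 and 0.653, and 0.718 and 0.520), Slc1a4 and Aldh3a2. Lgr5 RNA had log2 FCs of -0.44 (FDR 0.523) and -0.49 (FDR 0.244). Periportal genes nearest to members were Alb and Sox9. The calls of Foxa3, Ugt2b1 and Bhlhe41 were lost under 7, 17 and 10 of the alternatives, most of which left out a mouse.

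Markers of liver cell types were compared to check the tissue and its makeup. Hepatocyte markers summed to 94958 to 112130 CPM with vehicle and 90332 to 99549 with PB in C57BL/6J, and to 109135 to 117140 against 93557 to 107135 in B6C3F1, where the groups did not overlap and the PB-treated mice were lower. Albumin (Alb), which is nearest to a member, made up more than any other part of this sum, with log2 FCs of -0.18 (limma FDR 0.360) and -0.31 (FDR 0.0178). By limma none of the 9 hepatocyte, 9 endothelial, 6 biliary, 9 Kupffer cell and 9 stellate cell markers was called in either strain, with unadjusted p under 0.05 in 5, 2, 0, 0 and 2 of them in C57BL/6J and 3, 0, 1, 0 and 2 in B6C3F1. The share of all genes under this p was 12.4% in C57BL/6J and 23.4% in B6C3F1. The hepatocyte counts of 5 and 3 lay above it, with median log2 FCs of -0.17 and -0.03. In C57BL/6J the endothelial and stellate counts of 2 each lay above it too, with median log2 FCs of 0.14 and -0.10. The summed stellate and fibroblast markers were 456 to 566 CPM with vehicle and 382 to 476 with PB in C57BL/6J, and 469 to 640 against 392 to 517 in B6C3F1, so that the ranges overlapped but lay lower with PB, with median log2 FCs of -0.10 and -0.23. The stellate markers Rgs5 and Dcn were nearest to members, with ratios of 0.622 and 0.724, and 0.660 and 0.687. Endothelial markers were 459 to 506 against 485 to 555 and 419 to 475 against 431 to 495. Kupffer cell markers were 282 to 402 against 258 to 464 and 213 to 274 against 222 to 276, and biliary markers 40.1 to 48.8 against 38.7 to 53.0 and 39.4 to 55.3 against 40.0 to 46.7. T and B cell markers summed to 2.89 to 3.71 against 1.69 to 3.90 and 1.88 to 2.91 against 1.27 to 3.06. The part of these shifts in the closed DHSs was not tested. Ass1, a urea cycle gene of periportal hepatocytes, was listed under 1 CPM in every sample and was not read.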

How the data were processed

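DNase-seq and RNA-seq of 18 livers were used as deposited, and samples were grouped by their labels. For the DNase-seq signal, the authors trimmed reads with Cutadapt 1.8, aligned those of both strains to mm10 with Bowtie2 2.1.0, marked duplicates with Picard, called peaks per sample with MACS2 2.1.1.20160309 and counted reads with DiffBind 1.16.3 in DHSs shared by 3 or more samples. The signal they deposited scales each mouse's reads by a single factor, so whole reads could be recovered (100% of values within 0.1 read). For the RNA-seq signal, the authors aligned reads with STAR 2.4.0f1, counted them by strand over RefSeq genes and, with edgeR 3.12.1, scaled them by TMM into the CPM table they deposited. Reads in genes were 23.8 to 30.3 M per mouse. No sample column was left unused.

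Members were found by the rule given at the start of the results. The members and the gene lists were chosen with earlier results of these data known. limma 3.58.1 (trend and robust) in R 4.3.3 was fitted on log2(normalized count + 1) over the 9 mice of a strain, the 8 vehicle-treated mice, or all 18 for the interaction, and on log2(CPM + 0.1) over all 18 RNA-seq samples, for genes that reached 0.4 CPM in 3 or more mice of some group. Fold changes are on these scales and understate the change of low genes. P-values were adjusted by Benjamini-Hochberg over all DHSs or genes. Replicates are separate mice.

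Genes, distances and sequences came from RefSeq on GRCm38, which has the coordinates of mm10. DHSs named were the 12 with the lowest geometric mean of both ratios among those without overlap, up to 12 called by limma by FDR, up to 8 over promoters, up to 6 loci of 3 or more members, and 3 either side of the limit. Genes named were those nearest to them, every nearest gene called by RNA-seq, and up to 4 called genes a list. Alternatives were other ratio and level limits, group medians, other scaling, pseudocounts and filters, edgeR 4.0.16 on recovered reads, other samples in the fit, a replicate block, an FDR of 0.05 and each mouse left out in turn. Leaving out mice in the strain and interaction fits was chosen after seeing the data. Results of a few genes are not reported here. Tests were tried on simulated data first. Python 3.11.15 with pandas 2.3.3, numpy 2.4.6 and matplotlib 3.10.9 was used for the rest.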

Additional observations from a re-analysis of the deposited data

Results flagged for a closer look

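Among 396 groups of 4 or 5 mice in the DHSs and genes named, 28 (7.07%) held a mouse whose gap to the nearest other mouse passed Dixon's 95% critical value, where chance alone gives about 1 in 20. Each is given with its value, in normalized counts for DHSs and in CPM for RNA, and with no explanation.

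In C57BL/6J vehicle-treated mice, the highest was mouse 5 in the DHSs near Gm40962 (148, median 125) and Scara5 at chr14:65719352-65719602 (251, median 67.2) and mouse 1 in the intronic Ocstamp DHS (48.7). The lowest was mouse 3 in the Chrm2 DHS at chr6:36259065-36259330 (112, median 154) and mouse 5 in the Actn1 DHS just outside the ratio limit (41.6, median 71.1). In C57BL/6J PB-treated mice, the highest was mouse 1 in the Gpc1 promoter DHS (207, median 147) and mouse 4 in the Tmem45b DHS at chr9:31432371-31432691 (116), and the lowest was mouse 2 in the Sel1l3 DHS (41.8).

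In B6C3F1 vehicle-treated mice, the highest was mouse 5 in the Htra1 promoter DHS (158, median 124) and mouse 3 in the DHSs near Gm34637 (73.8, median 21.3) and Ankrd44 (114, median 64.2), and the lowest was mouse 3 in the 4930549C15Rik DHS (340, median 605). Mouse 3 is the vehicle-treated B6C3F1 mouse with the fewest reads. In B6C3F1 PB-treated mice, the highest was mouse 2 in the Maf DHS (79.3), mouse 3 in the Mycn promoter DHS (122) and in the Ocstamp DHSs 4037 and 4714 bp upstream of the TSS (55.5 and 103), and mouse 5 in the Col6a6 promoter DHS (583, median 63.4) and the same Scara5 DHS (246, median 39.7).

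In RNA-seq of C57BL/6J, vehicle-treated mouse 1 was highest for Cyp2c39 (3.53) and lowest for Tmem50a (53.1), vehicle-treated mouse 2 was lowest for Nr4a2 (0.455), and PB-treated mouse 4 was lowest for Cyp2c67 (105). In B6C3F1, vehicle-treated mouse 1 was highest for Nr4a2 (1.39) and Pdzd2 (4.95), mouse 3 was lowest for Cyp2c67 (294) and highest for Slc24a5 (2.29), and mouse 5 was highest for Htra1 (3.91), the mouse that was also highest in its promoter DHS. PB-treated mouse 3 was lowest for Slc16a13 (0.432).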

How the results depend on the processing

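The number of closed DHSs moved from 644 to 287 with a ratio limit of 0.70, 1397 with 0.80 and 403 with a level minimum of 50, and to 580 to 862 when a mouse was left out. With group medians it was 925, of which 440 were members. Members called lower in C57BL/6J moved from 24 to 4 with all 18 mice in the fit and 55 at an FDR of 0.05, and to 6 to 26 when a mouse was left out. In B6C3F1 they moved from 9 to 52 with all 18 mice, 20 with edgeR, 15 with a pseudocount of 10, 35 at an FDR of 0.05, 0 with the replicate block, and to 2 to 18 when a mouse was left out. Calls over all DHSs moved as well. In C57BL/6J they went from 37 to 7 with all 18 mice, and to 13 to 42 when a mouse was left out. In B6C3F1 they went from 21 to 168 with all 18 mice, 52 with edgeR, 35 with a pseudocount of 10 and 1 with the replicate block. Leaving out a B6C3F1 mouse gave 4 to 103. Members that differed between strains moved from 74 to 137 at an FDR of 0.05 and to 41 to 102 when a mouse was left out, and the interaction stayed at 0 in every fit tried. Over all DHSs, the strain fits that left out a mouse called 2048 to 6105 lower and 2932 to 6452 higher.

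Nearest genes called in C57BL/6J moved from 3 to 5 at an FDR of 0.05, 8 with every gene within 100 kb and 1 with the replicate block, and to 2 to 4 when a mouse was left out. In B6C3F1 they moved from 14 to 7 with 9 samples in the fit, 22 at an FDR of 0.05, 23 within 100 kb and 8 with the replicate block, and to 9 to 17 when a mouse was left out. Calls over all genes moved as well. In B6C3F1, 62 lower and 215 higher became 27 and 155 with 9 samples, 122 and 293 at an FDR of 0.05, and 33 and 175 with the replicate block. In C57BL/6J, 4 and 117 became 14 and 147 at an FDR of 0.05, and 3 and 99 with the replicate block. Mice with the same digit deviated together with correlations of -0.24 to 0.27. Each value rests on a single pair of mice, so it cannot show whether they shared more than a number, such as a batch. The log2 ratio of the Col6a6 promoter DHS in C57BL/6J ranged from -1.09 to 0.43 when a mouse was left out, the latter without vehicle-treated mouse 5. Of the other values of single DHSs and genes under the alternatives, 3906 kept their direction and side of the cutoff, 148 no longer passed and 15 newly passed. The cause of these changes was not tested. The median member had 19 to 63 reads in the B6C3F1 mice and 45 to 181 in the C57BL/6J mice, and the part of depth in these counts was not tested.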

Other observations

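Other promoters with a closed DHS, named here after their values were seen, belonged to genes whose RNA did not pass the cutoff. Rspo3 encodes an R-spondin ligand that strengthens β-catenin signaling in the perivenous liver. Its promoter DHS (chr10:29535758-29536058) had ratios of 0.698 in C57BL/6J and 0.688 in B6C3F1, and its RNA log2 FCs were -0.36 (limma FDR 0.0612) and -0.31 (FDR 0.0528). H2-Q1, a histocompatibility gene whose close relatives may share its reads, had RNA log2 FCs of -1.95 (FDR 0.0183) and -1.09 (FDR 0.127), Acot1, an acyl-CoA thioesterase gene, of -0.55 (FDR 0.684) and -1.35 (FDR 0.0476), and Bmyc, a MYC family gene, of -0.26 (FDR 0.676) and -0.70 (FDR 0.0199).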
